A study of Mus musculus with 10 samples.

Results

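Macrophages are tissue phagocytes that take up dead cells and antibody-coated particles, and in tumors they often make up a large share of the leukocytes. They carry CD45, the surface phosphatase encoded by Ptprc that all nucleated blood-derived cells share, so a sort for CD45-negative cells is meant to leave them out. Described here are 37 genes whose transcripts mark macrophages, monocytes or leukocytes as a whole, of 53379 genes in the count table. They were taken as a fixed list of symbols, matched to the table through their Ensembl identifiers, and all 37 were found in 1 row each. The rule that picks them uses no measured value, but the list was drawn up with earlier results of these data known.

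The RNA came from MC38 cells, a mouse colon carcinoma line, recovered from tumors at day 21 after implantation into C57BL/6J mice. The cells had been sorted as positive for the fluorescent protein dTomato and negative for CD45. There were 5 high-fat-diet mice and 5 control-diet mice, with 1 polyA RNA library per mouse. Both diets share the tumor line, the reporter, the strain, the day and the sort. What the diets contained, how long they were fed, and how old and of which sex the animals were is not stated in the labels, and MC38 stands for a single tumor line. Sequencing depth was even, with 16513388 to 17154050 counts per library in high-fat mice and 17050797 to 18653705 in control mice. Levels are given below as CPM (counts relative to library size, adjusted by edgeR's TMM factors), always listed for mice 1 to 5 in order. A count of 0 allows up to 3 counts, which was 0.158 to 0.183 CPM depending on the library, and this limit covers counting error only.

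The biology behind the list is well known. Macrophages need the receptor Csf1r for survival, and the transcription factor PU.1, encoded by Spi1, switches on much of their gene program. The C1q chains, the lysozyme Lyz2 and the mannose receptor Mrc1 are made mostly by macrophages within tissues, while Cx3cr1 and Ccr2 are chemokine receptors of monocytes and of the cells that arise from them. Apoe, Cd68 and Cyba are made by many other cell types too.

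Transcripts of this list were present in every sorted library at a low level. The 37 genes together drew 1741, 3493, 2478, 2498 and 2705 counts in high-fat mice, against 6247, 2730, 14706, 19645 and 3419 counts in control mice. That was 0.0105% to 0.0204% of all counts in high-fat libraries and 0.0148% to 0.105% in control libraries. Control mice 3 and 4 stood far above all others, control mouse 1 came next, and control mice 2 and 5 lay within the range of the high-fat mice. Ptprc itself, the gene of the protein the sort selected against, had 12, 131, 143, 56 and 32 counts in high-fat mice and 80, 25, 270, 451 and 40 counts in control mice. The 3 marker genes fixed for macrophages, Lyz2, Csf1r and C1qa, were likewise counted in all 10 libraries. From which cells the transcripts came was not tested. In bulk RNA, fewer cells of a type and less RNA per cell cannot be told apart, and this holds for every level below.

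Summed over the 37 genes, the level was 104, 209, 151, 148 and 158 CPM in high-fat mice, against 371, 145, 857, 1038 and 195 CPM in control mice. The means were 153.8 ± 37.4 CPM in high-fat mice and 521 ± 403 CPM in control mice (SD, n = 5 each), a log2 ratio of -1.76. With control mice 3 and 4 left out, the control mean was 237 ± 119 CPM (SD, n = 3) and the log2 ratio -0.62. The sum gets no test, because its genes were chosen with results known.

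**Figure D1:**
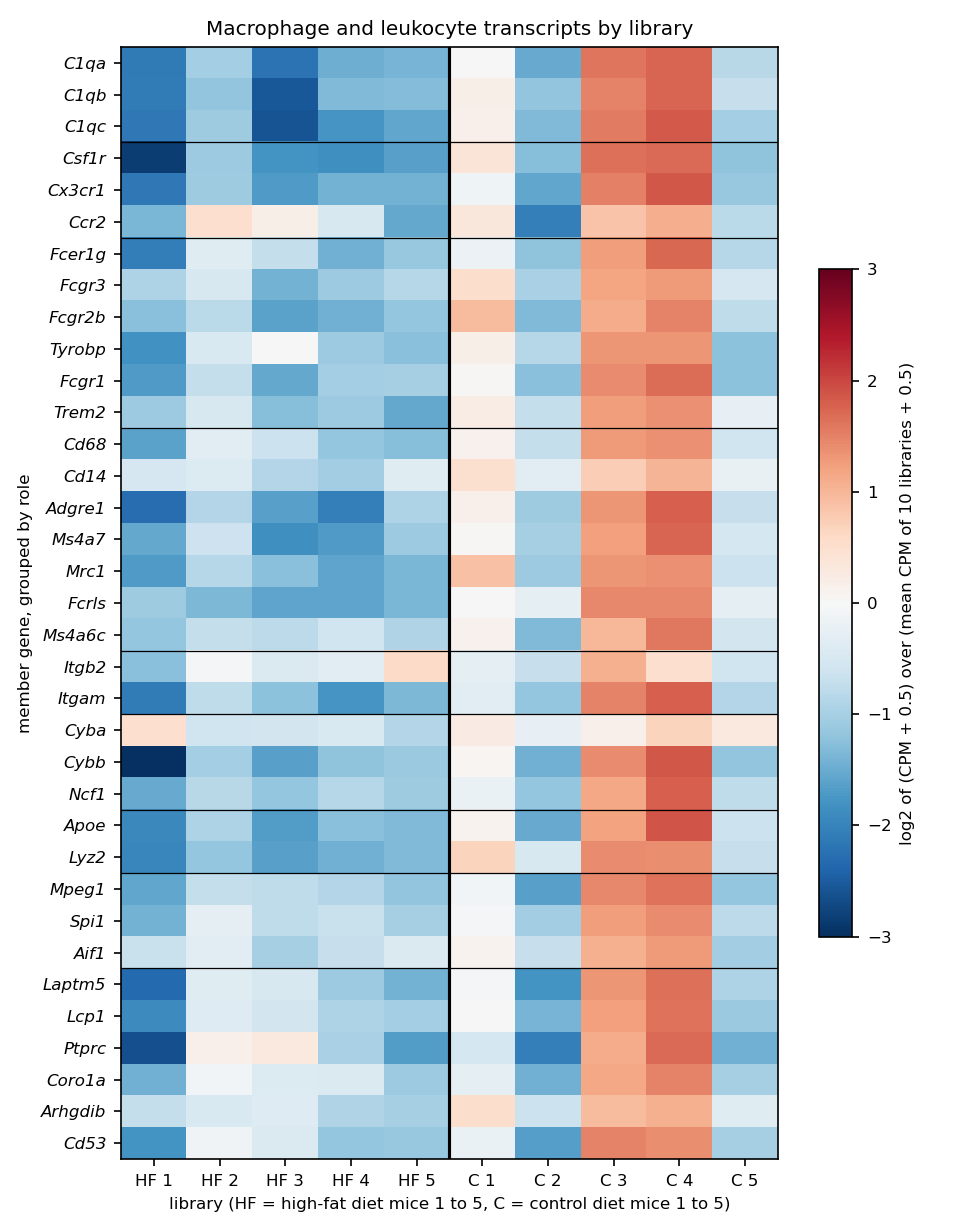
Level of each of the 35 tested genes (rows, grouped by role) in each library (columns, HF for high-fat mice and C for control mice), as log2 of CPM + 0.5 over the mean of the 10 libraries + 0.5. Control mice 3 and 4 are red in nearly every row, high-fat mouse 1 is the darkest blue for 20 of the 35 genes, and Cyba, Itgb2 and Ccr2 depart from the pattern of the other rows.

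Per kilobase of merged exon, the order of the genes differed between diets. In high-fat mice Cyba was highest, at a mean of 11.1 CPM per kilobase, followed by Apoe at 7.57 and C1qa at 7.31. In control mice C1qa was highest, at a mean of 38.2 CPM per kilobase, followed by C1qb at 33.6 and Apoe at 32.6, with Cyba at 16.5. Averaged over all 10 libraries, C1qa had 22.7, Apoe 20.1, C1qb 19.9, Lyz2 15.6 and Cyba 13.8 CPM per kilobase. Csf1r had 2.01 CPM per kilobase and Ptprc 0.384 CPM per kilobase on the same scale. Cd163, the scavenger receptor for haemoglobin bound to haptoglobin, was at the bottom with 5 counts over the whole study, 0, 0, 1, 2 and 0 in high-fat mice and 0, 1, 0, 1 and 0 in control mice.

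The C1q chains, which assemble into the recognition molecule of the classical complement pathway, had the largest ratio of group means between diets among the role groups, the control mean being 5.51 times the high-fat mean. Their genes lie side by side on the minus strand of mouse chromosome 4 (GRCm38), from C1qb at 136880129-136886187 through C1qc at 136889804-136893065 to C1qa at 136895917-136898803. C1qa had 5.06, 11.4, 4.70, 8.28 and 8.63 CPM in high-fat mice, against 24.0, 7.96, 73.3, 80.1 and 13 CPM in control mice. C1qb had 4.65, 9.20, 3.30, 8.28 and 8.51 CPM in high-fat mice, against 24.6, 9.23, 61.4, 74.2 and 13.2 CPM in control mice. C1qc had 4.29, 9.62, 2.99, 5.68 and 6.59 CPM in high-fat mice, against 23.0, 7.96, 61.1, 74.2 and 9.91 CPM in control mice. All 3 chains were highest in control mouse 4 and next highest in control mouse 3, and among controls the high-fat mice overlapped only mouse 2, except for C1qb, where the groups missed overlap narrowly (9.20 CPM in high-fat mouse 2 against 9.23 CPM in control mouse 2). The log2 changes were -2.38 (SE 0.63) for C1qa, -2.42 (SE 0.59) for C1qb and -2.59 (SE 0.65) for C1qc, with adjusted p = 0.196, 0.183 and 0.183 in edgeR's quasi-likelihood test, so none passed 0.05.

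The balance of the 3 chains varied little beside their total; it was not tested between diets. C1qa made up 38.0% ± 2.72 of the C1q counts in high-fat mice and 34.7% ± 2.23 in control mice (SD, n = 5 each). C1qb made up 33.4% ± 3.20 in high-fat mice and 34.3% ± 2.38 in control mice. C1qc made up 28.6% ± 2.59 in high-fat mice and 31.0% ± 2.01 in control mice. The summed C1q level meanwhile ran from 11.0 to 30.2 CPM in high-fat mice and from 25.1 to 229 CPM in control mice.

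Among the receptors for growth factor and chemokines, Csf1r and Cx3cr1 had larger estimates than Ccr2. Csf1r, the receptor for CSF1 and IL-34 (chromosome 18, 61100598-61132149, plus strand), had 1.19, 5.14, 2.99, 2.90 and 3.38 CPM in high-fat mice, against 15.2, 4.46, 37.4, 38.6 and 4.73 CPM in control mice. Its log2 change was -2.68 (SE 0.67, edgeR adjusted p = 0.183). Cx3cr1, the fractalkine receptor, had 0.953, 2.57, 1.47, 1.89 and 1.92 CPM in high-fat mice, against 5.34, 1.70, 18, 23.1 and 2.45 CPM in control mice, a log2 change of -2.52 with SE 0.71 (edgeR, adjusted p = 0.210). For both genes, all 5 high-fat libraries lay below control mice 1, 3 and 4. Ccr2, the receptor that draws monocytes out of the bone marrow and into tissues, had 0.715, 4.00, 3.05, 1.77 and 0.583 CPM in high-fat mice, against 3.50, 0.265, 5.19, 6.18 and 1.31 CPM in control mice. High-fat mouse 2 exceeded control mouse 1 for Ccr2, and the log2 change was only -0.70 (SE 0.70, edgeR adjusted p = 0.770). Without control mice 3 and 4, Ccr2 changed sign, to 0.27.

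The Fc receptors bind the constant part of IgG; Fcgr1 and Fcgr3 signal through Fcer1g, while Fcgr2b carries its own inhibitory motif, and Trem2, a lipid-sensing receptor, signals through Tyrobp. Fcer1g had 1.79, 6.93, 5.37, 3.02 and 3.85 CPM in high-fat mice, against 8.07, 3.66, 22.4, 31.3 and 4.84 CPM in control mice, a log2 change of -1.75 with SE 0.61 (edgeR, adjusted p = 0.289). Trem2 averaged 0.441 ± 0.273 CPM in high-fat mice and 2.45 ± 1.75 CPM in control mice (SD, n = 5 each), a log2 change of -2.45. The activating receptors Fcgr1 and Fcgr3 had log2 changes of -2.24 and -1.68, the inhibitory receptor Fcgr2b -2.17, and Tyrobp -1.51. The inhibitory and activating receptors thus had estimates of the same sign, with control mouse 4 highest for each of the 6 genes. Fcgr2b and Fcgr3 share sequence, 7.44% and 12.8% of their 50-base windows being found in other genes, mostly in each other, so part of their counts could belong to the other.

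Scavenger receptors and surface proteins held the largest single estimates. Fcrls, an Fc receptor-like surface protein of some tissue macrophages, had 0.476, 0.299, 0.183, 0.177 and 0.292 CPM in high-fat mice, against 1.54, 1.17, 5.01, 5.02 and 1.20 CPM in control mice. Every high-fat library lay below every control library, but the high-fat values rest on 3 to 8 counts each. Its log2 change was -3.25 (SE 0.55), with edgeR adjusted p = 0.0851, the lowest of the list. Mrc1, the mannose receptor, averaged 0.382 ± 0.211 CPM in high-fat mice and 3.04 ± 2.21 CPM in control mice (SD, n = 5 each), a log2 change of -2.97 with SE 0.65 (edgeR, adjusted p = 0.141). Adgre1, which encodes the macrophage antigen F4/80, had a log2 change of -2.53, and the membrane proteins Ms4a7 and Ms4a6c had -2.42 and -1.92. Adgre1, Ms4a7 and Ms4a6c reached at most 2.09, 1.79 and 0.769 CPM in high-fat mice, against 15.9, 11.4 and 5.18 CPM in control mouse 4.

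Cd68 and Cd14 had smaller estimates. Cd68, a lysosomal glycoprotein, had 3.22, 8.60, 6.72, 4.55 and 4.14 CPM in high-fat mice, against 11.9, 6.42, 26.9, 28.8 and 7.0 CPM in control mice, a log2 change of -1.57 with SE 0.47 (edgeR, adjusted p = 0.237). Cd14, a co-receptor for bacterial lipopolysaccharide, had 5.06, 5.44, 3.79, 3.31 and 5.66 CPM in high-fat mice, against 10.4, 5.73, 12.6, 15.6 and 6.26 CPM in control mice. No high-fat library reached the lowest control library for Cd14, and the gap was narrow, 5.66 CPM in high-fat mouse 5 against 5.73 CPM in control mouse 2. Its log2 change was -1.12 (SE 0.28, edgeR adjusted p = 0.180).

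In the secreted group control mice 3 and 4 were again the 2 highest libraries. Lyz2, lysozyme M, had 4.88, 8.90, 6.29, 7.22 and 7.87 CPM in high-fat mice, against 33.0, 14.6, 55.7, 54.6 and 12.6 CPM in control mice. Its groups did not overlap, and the means were 7.03 ± 1.53 CPM in high-fat mice and 34.1 ± 20.8 CPM in control mice (SD, n = 5 each). The log2 change was -2.28 (SE 0.43, edgeR adjusted p = 0.108), with 15.4% of its windows shared with other genes, mostly Lyz1. Apoe, the lipid-carrying apolipoprotein E, had 10.9, 22.3, 13.2, 17.9 and 16.7 CPM in high-fat mice, against 45.9, 14.7, 99.3, 161 and 27.3 CPM in control mice, a log2 change of -2.11 with SE 0.58 (edgeR, adjusted p = 0.199). For Apoe only high-fat mice 2, 4 and 5 overlapped the controls, and only with control mouse 2. Pf4, a chemokine of platelets and of some macrophages, was too low to be tested, with 1, 3, 0, 1 and 1 counts in high-fat mice and 9, 9, 31, 14 and 4 counts in control mice.

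**Figure D2:**
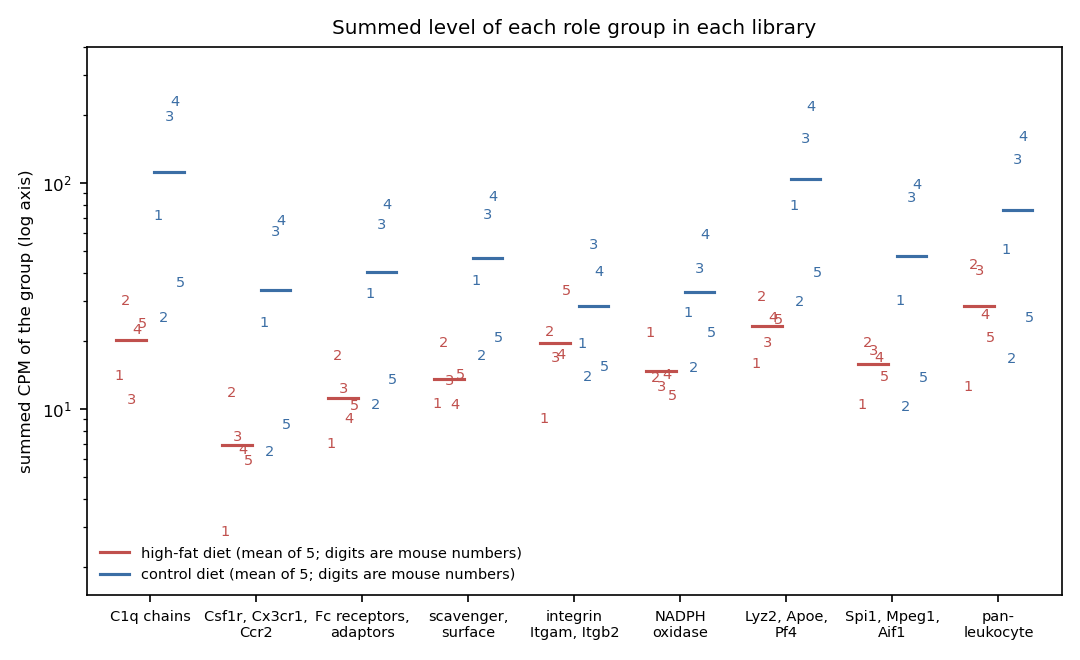
Summed CPM of each role group (x axis) in each library on a log axis; digits are mouse numbers, red for high-fat and blue for control mice, and bars are the means of 5. Control mice 3 and 4 lie above all high-fat mice in each of the 9 groups, and control mice 2 and 5 lie close to or among the high-fat mice.

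The integrin chains parted from each other. Itgam, the alpha chain of the macrophage integrin Mac-1 and known as CD11b, averaged 0.621 ± 0.390 CPM in high-fat mice and 4.16 ± 4.07 CPM in control mice (SD, n = 5 each), a log2 change of -2.73 with SE 0.77 (edgeR, adjusted p = 0.206). Itgb2, the beta chain shared by leukocyte integrins, had 8.81, 20.8, 16.0, 16.9 and 32.6 CPM in high-fat mice, against 17.5, 13.1, 45.7, 30.8 and 14.2 CPM in control mice. High-fat mouse 5 exceeded every control library but that of mouse 3, and the log2 change was -0.35 (SE 0.41, edgeR adjusted p = 0.806). It was 0.01 without control mouse 3 and 0.35 without control mice 3 and 4, against -0.98 for Itgam without those 2 mice. Itgam shares 72.4% of its windows with other genes, mostly the overlapping gene model Gm49368 on the same strand. That model drew 3 counts over the study and Itgam 427. How reads in the shared stretch were counted is not stated, so the Itgam level could be too low.

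The NADPH oxidase makes superoxide in phagocytes from a membrane pair, Cybb and Cyba, and cytosolic subunits such as Ncf1. Cybb, the catalytic subunit, had 0.417, 3.11, 1.83, 2.66 and 2.86 CPM in high-fat mice, against 7.12, 2.18, 19.0, 25.7 and 2.68 CPM in control mice, a log2 change of -2.38 with SE 0.73 (edgeR, adjusted p = 0.243). Ncf1 had a log2 change of -2.10 with SE 0.63 (edgeR, adjusted p = 0.236). Cyba, the partner that Cybb needs for its stability, had 20.6, 9.38, 9.71, 10.2 and 7.58 CPM in high-fat mice, against 17.1, 12, 16.1, 23.0 and 17.7 CPM in control mice, a log2 change of -0.58 with SE 0.26 (edgeR, adjusted p = 0.390). High-fat mouse 1 had the lowest Cybb of all libraries and the highest Cyba but for control mouse 4. The ratio of the highest to the lowest library, on CPM + 0.5, was 28.6 for Cybb, the largest of the tested genes of the list, and 2.91 for Cyba, the smallest.

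Spi1 (PU.1), Mpeg1 (perforin-2, a pore-forming protein of phagocytes) and Aif1 (the calcium-binding protein IBA1) had log2 changes of -1.56, -1.60 and -1.47. Mpeg1 had 9.05, 16.4, 16.1, 14.7 and 11.9 CPM in high-fat mice, against 25.9, 8.54, 75.0, 85.5 and 12 CPM in control mice (edgeR adjusted p = 0.316). Control mouse 2 was the lowest of all 10 libraries for Mpeg1, whereas its C1q sum exceeded that of 4 high-fat mice. Summed over the 3 genes, the control mean was 3.02 times the high-fat mean with all mice and 1.14 times without control mice 3 and 4.

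Genes common to all leukocytes had a smaller ratio of group means than the C1q chains or the receptor group. The control mean over the high-fat mean was 2.65 for the sum of the 6 pan-leukocyte genes. It was 5.51 for the C1q chains and 4.85 for the receptor group, but 2.24 for the NADPH oxidase genes and 1.45 for the integrin chains. The differences between these ratios were not tested. Ptprc (chromosome 1, 138062861-138175708, minus strand) had 0.715, 7.83, 8.73, 3.31 and 1.87 CPM in high-fat mice, against 4.75, 1.33, 15.7, 23.8 and 2.28 CPM in control mice, a log2 change of -1.10 with SE 0.82 (edgeR, adjusted p = 0.670). High-fat mice 2 and 3 exceeded control mice 1, 2 and 5. Laptm5, a lysosomal membrane protein, had 3.04, 13.4, 12.3, 7.87 and 6.18 CPM in high-fat mice, against 17, 4.67, 44.4, 55.7 and 8.94 CPM in control mice (log2 change -1.61). Lcp1, the actin-bundling protein L-plastin, had 3.28, 10.2, 9.16, 6.92 and 6.41 CPM in high-fat mice, against 13.4, 4.88, 32.5, 43.0 and 6.04 CPM in control mice (log2 change -1.47). For both genes high-fat mice 2 and 3 were the highest of their group, as for Ptprc.

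Coro1a, an actin regulator, had 1.85, 5.56, 4.34, 4.26 and 2.51 CPM in high-fat mice, against 4.75, 1.86, 13.8, 17.6 and 2.73 CPM in control mice (log2 change -1.14). Arhgdib had 3.16, 3.88, 4.09, 2.72 and 2.51 CPM in high-fat mice, against 8.25, 3.34, 11.1, 12 and 4.16 CPM in control mice (log2 change -1.25, edgeR adjusted p = 0.197). The tetraspanin Cd53 had a log2 change of -1.59 (edgeR adjusted p = 0.411). Without control mice 3 and 4, the changes of Ptprc, Coro1a and Cd53 turned positive, at 0.69, 0.25 and 0.04, while those of Laptm5, Lcp1 and Arhgdib were -0.25, -0.17 and -0.68.

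Whether diet went with these transcripts was tested gene by gene in a fit over all 14337 genes that passed a filter on low counts, 35 of the 37 among them. In edgeR, 0 of the 35 genes passed an adjusted p of 0.05; 0.0209% of all tested genes passed as lower on high-fat diet and 0.0418% as higher. At an unadjusted p under 0.05, 31 of the 35 were lower, against 6.62% of all tested genes. All 35 estimates were below 0, where 48.6% of all tested genes were, with a median log2 change of -1.92 against 0.01 over all tested genes. The estimates ran from -3.25 for Fcrls to -0.35 for Itgb2. Control mice 3 and 4 were the 2 highest libraries for 33 of the 35 genes, so these estimates are not independent of each other. Because the filter admits a gene through the group where it is higher, these counts describe the genes that passed: 23 were above the minimum in all 10 libraries, and Fcrls was above it in no high-fat library.

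The number of genes called depended on the tool. DESeq2 called 18 of the 35 as lower, against 1.52% of all genes to which it gave an adjusted p, among them the C1q chains, Csf1r, Cx3cr1, Apoe, Lyz2, Mrc1, Trem2, Fcrls, Itgam and Cd14. For Fcrls the DESeq2 adjusted p was 7.32e-06 and for Lyz2 0.000410. Plain limma-voom called 0, against 0.0139% of all tested genes as lower, and limma-voom with sample quality weights, added after seeing the data, called 3, Cd14, Fcrls and Lyz2, against 3.06% of all tested genes. With no filter on low counts edgeR called 1, Pf4, against 0.103% of all genes then tested. Cd14, Fcrls, Lyz2 and C1qb were also the tested genes of the list whose high-fat libraries all lay below every control library; that was so for 1.10% of all tested genes.

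**Figure D3:**
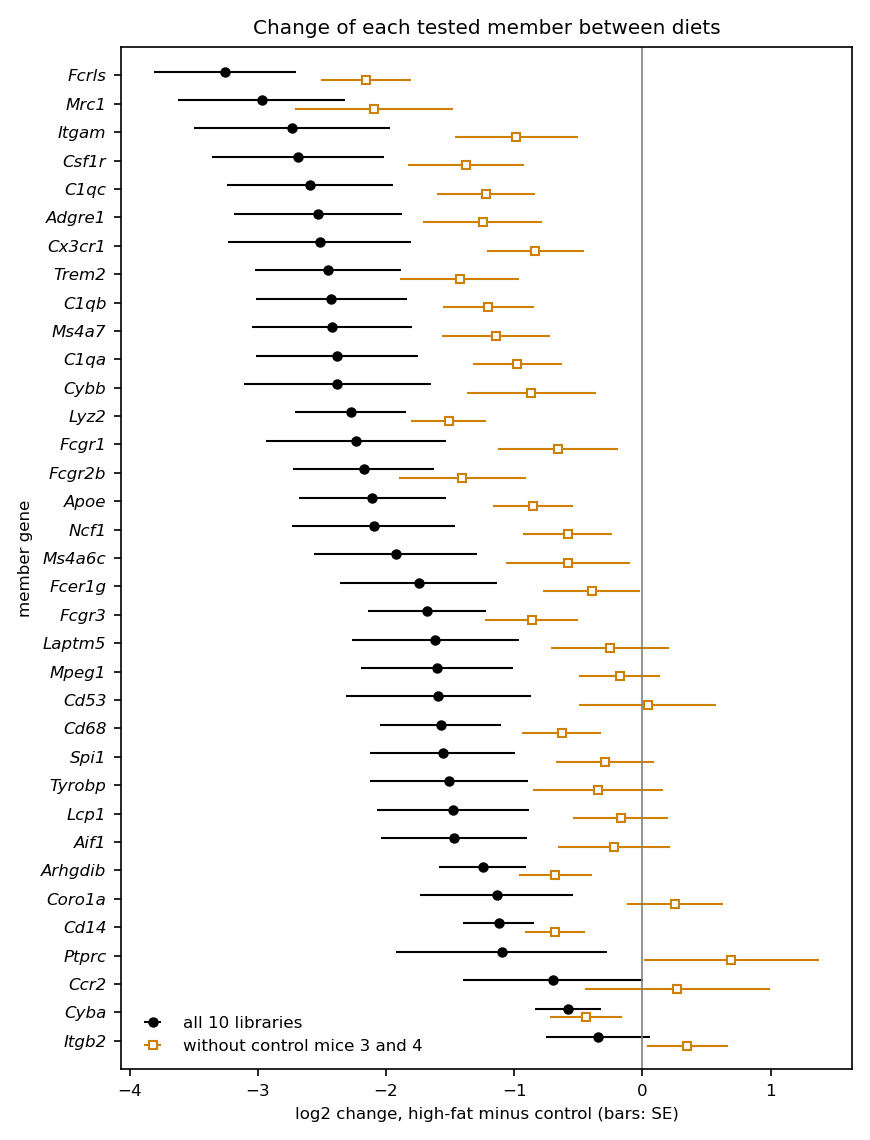
Log2 change of each of the 35 tested genes (y axis), high-fat minus control, from edgeR; black points use all 10 libraries, open orange squares leave out control mice 3 and 4, and bars are SE. All black points lie left of 0, and 30 of the 35 squares do.

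How far 2 mice carried these differences could be read by leaving them out. Control mouse 4 was the highest of all 10 libraries for 32 of the 35 genes, against 7.13% of all tested genes, and control mouse 3 was the highest for the other 3, Lyz2, Itgb2 and Cd53. Together they were the 2 highest libraries for 33 genes, with Itgb2 and Cyba as exceptions. Without them, 30 of the 35 estimates stayed below 0 and their median was -0.68, against 0.00 over all tested genes. In that fit 2 genes passed, Fcrls at -2.16 (edgeR adjusted p = 0.0124) and Lyz2 at -1.51 (edgeR adjusted p = 0.0272), against 1.07% of all tested genes called lower. The 2 mice left out were the highest for both genes, which narrows the control spread, so these calls give no separate support. Fcrls also had only 3 to 8 counts in each high-fat library. Control mouse 1 also exceeded all 5 high-fat mice for 29 of the 35 genes. The share over all tested genes was not counted for the 33 and the 29, so they describe the list only.

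The genes of the list spanned a wider range across mice than most genes did. The highest library over the lowest, on CPM + 0.5, had a median of 9.77 over the 35 genes and 1.49 over all tested genes. Among control mice, the log2 ratio of a gene to Csf1r had a smaller SD than the gene's own log2 level for 31 of the other 34 genes, the exceptions being Cd14, Itgb2 and Cyba. Among high-fat mice that held for 15 of 34. The ratios were taken on counts + 0.5 and the levels on CPM + 0.5, which lowers the level SD of genes with few counts. Levels were lower in high-fat mice, so the 31 and the 15 cannot be compared as a difference between diets. Between diets, the mean log2 ratio to Csf1r was higher in high-fat mice for 31 of the 34 genes, against 99.9% of all tested genes but Csf1r. For 8 of them, Fcer1g, Aif1, Itgb2, Cd53, Spi1, Mpeg1, Lcp1 and Coro1a, every high-fat library was above every control library, against 15.0% of all tested genes but Csf1r, and for 0 every one was below. All these ratios share Csf1r as their denominator, so they are not independent of each other, and Csf1r had only 20 to 86 counts in high-fat libraries, against 83 to 730 in control libraries.

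Of 6 ratios tested between named genes, those of Mrc1, C1qa, Lyz2 and Apoe to Csf1r did not differ detectably by diet. The log2 ratio of Mrc1 to Csf1r differed by -0.30 between high-fat and control mice (exact two-sided permutation p = 0.270). That of C1qa to Csf1r differed by 0.35 (exact permutation p = 0.238), that of Lyz2 to Csf1r by 0.21 (exact permutation p = 0.516) and that of Apoe to Csf1r by 0.60 (exact permutation p = 0.0556). Adjusted over the 6 ratios these were p = 0.324, 0.324, 0.516 and 0.111 in the permutation test.

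Of the 6 tested ratios, those of Ptprc and Ccr2 to Csf1r differed most. With 0.5 added to each count, there were 0.610, 1.52, 2.90, 1.14 and 0.556 Ptprc counts per Csf1r count in high-fat mice, against 0.314, 0.302, 0.421, 0.618 and 0.485 in control mice. The groups overlapped only through control mouse 4, and the ratio was 2.70-fold higher on high-fat diet, a log2 difference of 1.43 (exact two-sided permutation p = 0.0238, adjusted p = 0.0714). There were 0.610, 0.780, 1.02, 0.616 and 0.179 Ccr2 counts per Csf1r count in high-fat mice, against 0.232, 0.0651, 0.139, 0.161 and 0.281 in control mice. High-fat mouse 5 alone lay within the control range, and the log2 difference was 1.83 (exact two-sided permutation p = 0.0238, adjusted p = 0.0714). Neither passed 0.05 after adjustment. Csf1r, the denominator, had a log2 change of -2.68, so a gene level between diets would also have a higher ratio. The mean ratio to Csf1r was higher in high-fat mice for 99.9% of all tested genes but Csf1r. These differences therefore do not show a rise of Ptprc or Ccr2. With 5 mice a group the smallest exact p is 0.00794.

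**Figure D4:**
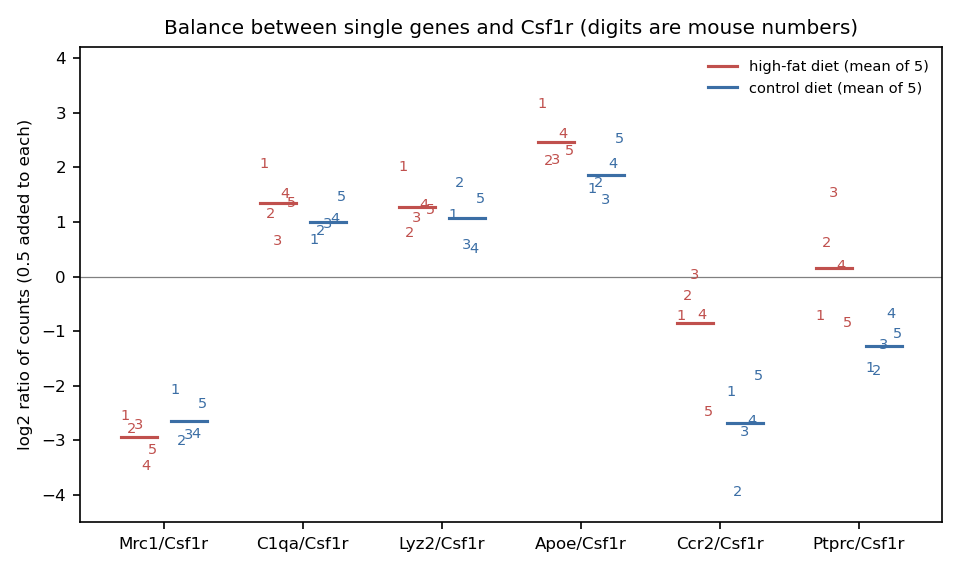
Log2 ratio of 6 genes' counts to Csf1r counts (0.5 added to each) in each library; digits are mouse numbers, red for high-fat and blue for control mice, and bars are the means of 5. The diets overlap for every ratio; for Ptprc the overlap is only through control mouse 4, and for Ccr2 only through high-fat mouse 5.

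Markers of other leukocytes moved with Ptprc in some of the same libraries. The 8 T and NK cell genes summed to 0.715, 5.68, 6.72, 2.25 and 0.758 CPM in high-fat mice and to 1.13, 0.265, 3.50, 10.7 and 0.285 CPM in control mice. The 5 mast cell genes summed to 0.238, 3.59, 8.12, 1.48 and 0.350 CPM in high-fat mice and to 0.297, 0.424, 4.26, 2.11 and 0.171 CPM in control mice. High-fat mice 2 and 3, which had the highest Ptprc ratios, had the highest sums of both lists among high-fat mice. Only Nkg7 and Tpsb2, 1 gene of each list, passed the filter on low counts, and the part of these cells in the Ptprc and Ccr2 ratios was not tested.

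Other lists gave the surroundings of these transcripts. Neutrophil genes (0 of 7 tested) summed to 0.119 to 0.427 CPM in high-fat mice and 0.0569 to 2.27 CPM in control mice, and B cell genes (0 of 4 tested) to 0.117 to 0.418 CPM in high-fat mice and 0.171 to 0.475 CPM in control mice. Dendritic cell genes summed to 7.99 to 13.1 CPM in high-fat mice and 9.68 to 13.8 CPM in control mice, nearly all of it Zbtb46. Endothelial genes summed to 21.3 to 29.2 CPM in high-fat mice and 17.7 to 25.6 CPM in control mice. Fibroblast and pericyte genes, led by Col3a1 and Dcn, were high in every library, at 6191 to 12273 CPM in high-fat mice and 6853 to 11789 CPM in control mice. The epithelial genes Krt8, Krt18, Krt19, Epcam and Cdh1 were low in every library, at 1.17 to 2.87 CPM in high-fat mice and 1.31 to 6.11 CPM in control mice. Erythroid genes summed to 0.414 to 1.55 CPM in high-fat mice and 0 to 16.1 CPM in control mice, and adipocyte genes, nearly all Fabp4, to 3.11 to 9.11 CPM in high-fat mice and 7.32 to 20.3 CPM in control mice. Erythroid sums were highest in control mouse 5 and adipocyte sums too, not in control mice 3 and 4.

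A second list of 65 macrophage and monocyte genes outside the 37 showed the same tilt less evenly. Of its 47 tested genes, 0 passed in edgeR, 27 were lower and 2 higher on high-fat diet at an unadjusted p under 0.05 (6.62% and 5.45% of all tested genes), and 43 had estimates below 0 (48.6% of all tested genes), with a median log2 change of -1.40. DESeq2 called 12 of them lower and 1, Plac8, higher, against 1.52% and 0.769% of all genes with an adjusted p. Its genes with the highest CPM were Tgfbi, a secreted matrix protein, at 217 ± 61.6 CPM in high-fat mice and 252 ± 47.1 CPM in control mice, and Gpnmb, a lysosomal glycoprotein, at 117 ± 10.5 CPM in high-fat mice and 131 ± 21.9 CPM in control mice (SD, n = 5 each). Their edgeR adjusted p-values were 0.735 and 0.599. Vsig4, a complement receptor of resident macrophages, had no count in any library.

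Ligands of the receptors on the list were measured in the same libraries. Csf1, the macrophage growth factor, averaged 546 ± 87.2 CPM in high-fat mice and 713 ± 82.3 CPM in control mice, a log2 change of -0.39 with SE 0.11 (edgeR, adjusted p = 0.210). Il34, the other ligand of Csf1r, averaged 119 ± 8.68 CPM in high-fat mice and 94.8 ± 11.7 CPM in control mice, a log2 change of 0.33 (edgeR adjusted p = 0.188). Ccl2, the main ligand of Ccr2, averaged 380 ± 47.6 CPM in high-fat mice and 275 ± 65.6 CPM in control mice, a log2 change of 0.47 (edgeR adjusted p = 0.247). Ccl7, another ligand of Ccr2, averaged 43.6 ± 6.69 CPM in high-fat mice and 37.8 ± 9.63 CPM in control mice. Cx3cl1, the ligand of Cx3cr1, and Icam1, a ligand of the integrins, averaged 0.708 ± 0.409 and 2.78 ± 1.49 CPM in high-fat mice, against 0.739 ± 0.236 and 3.05 ± 1.61 CPM in control mice (SD, n = 5 each). None of the 6 passed in edgeR; Csf1 was lower and Il34 and Ccl2 were higher at an unadjusted p under 0.05 (6.62% and 5.45% of all tested genes). DESeq2 called Csf1 lower and Il34 higher (1.52% and 0.769% of all genes with an adjusted p).

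The promoters of the list were searched for the site of PU.1. RefSeq (GRCm38.p6) gave sequence for 30 of the 37 genes, in 39 windows of the 250 bases upstream of a start. PU.1 binds purine-rich sites of the form GAGGAA. A second motif, AGGAAGT, shares the bases AGGAA with it but does not contain it. The motif GAGGAA occurred, on either strand, in 18 of the 39 windows, or 46.2%, against 23.3% of 32851 windows of all genes. The longer motif AGGAAGT occurred in 11 windows, or 28.2%, against 7.69% of all windows; the motifs can overlap each other. For comparison, TATAAA occurred in 12.8% of the windows of the list and 12.4% of all windows, and TGACTCA in 2.56% of the windows of the list and 4.46% of all. The windows were counted on both strands, several genes have more than 1, and no test was made. A match is not a bound site. Shown are 4 windows, picked because they hold GAGGAA: a complement chain, an Fc receptor, the receptor Trem2 and a pan-leukocyte tetraspanin. Each is printed in the gene's direction and ends 1 base before the start, with matches to GAGGAA and to AGGAAGT, on either strand, in capitals.
C1qb: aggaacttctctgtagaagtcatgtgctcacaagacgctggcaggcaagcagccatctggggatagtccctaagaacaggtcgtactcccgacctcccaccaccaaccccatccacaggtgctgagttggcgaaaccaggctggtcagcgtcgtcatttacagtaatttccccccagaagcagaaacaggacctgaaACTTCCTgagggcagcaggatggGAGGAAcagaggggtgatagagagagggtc
Fcgr1: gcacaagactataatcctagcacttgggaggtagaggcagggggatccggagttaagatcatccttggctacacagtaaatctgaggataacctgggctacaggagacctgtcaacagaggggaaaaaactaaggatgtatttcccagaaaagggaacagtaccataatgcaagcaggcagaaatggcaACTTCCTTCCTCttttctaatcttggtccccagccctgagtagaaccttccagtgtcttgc
Trem2: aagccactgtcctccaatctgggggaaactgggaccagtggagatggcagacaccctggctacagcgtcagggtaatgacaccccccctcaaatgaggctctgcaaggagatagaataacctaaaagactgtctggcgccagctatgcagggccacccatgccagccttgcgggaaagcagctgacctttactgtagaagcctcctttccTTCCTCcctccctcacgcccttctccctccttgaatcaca
Cd53: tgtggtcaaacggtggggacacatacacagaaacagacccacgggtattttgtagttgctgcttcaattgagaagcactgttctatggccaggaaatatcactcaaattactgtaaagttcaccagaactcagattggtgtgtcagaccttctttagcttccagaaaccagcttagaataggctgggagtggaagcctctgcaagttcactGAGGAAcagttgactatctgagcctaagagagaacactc
They lie at chr4:136886201-136886450 (minus strand) for C1qb, chr3:96293970-96294219 (minus strand) for Fcgr1, chr17:48346151-48346400 (plus strand) for Trem2 and chr3:106790150-106790399 (minus strand) for Cd53. In C1qb the GAGGAA match begins 30 bases upstream of the start, in Cd53 39, in Trem2 40 and in Fcgr1 55, and the AGGAAGT matches of C1qb and Fcgr1 begin 53 and 61 bases upstream. In Fcgr1 both matches are on the opposite strand and overlap.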

How the data were processed

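The authors deposited raw read counts per gene as whole numbers, 1 column per mouse. Per the submitters' processing notes, cutadapt 1.15, FastQC 0.11.5, BWA 0.7.12 and DESeq2 1.24.0 were used on GRCm38; the counter and strand setting are not stated there. Without strand, reads in the stretches where exons of Csf1r, Fcgr2b, Ms4a6c, Cx3cr1, Ncf1, Lcp1, Coro1a and Arhgdib overlap an opposite-strand gene cannot be assigned to either. The overlap is 26 bases for Coro1a and 1088 for Ms4a6c. For Csf1r, the denominator of the ratios, it is 873 bases, shared with Hmgxb3.

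Of 53379 genes, 53274 matched GENCODE M21, and 14337 passed edgeR's filterByExpr by diet (99.9% of counts). Diet was tested with edgeR 4.0.16 (TMM, robust quasi-likelihood fit, two-sided, Benjamini-Hochberg over all tested genes, threshold 0.05, R 4.3.3). SE is the log2 change divided by the square root of F. Ratios of raw counts with 0.5 added were tested by exact permutation in scipy 1.17.1 over all 252 splits, adjusted over 6. Alternatives used DESeq2 1.42.0, limma 3.58.1, other scaling, no filter, a replicate block, a library-total covariate and left-out libraries. The script was tested on simulated data.

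The members, gene lists and alternatives were chosen with earlier results of these data known. Values in every library are printed for members averaging at least 5 CPM, and the ligands are named by the same rule. That rule also names the 2 most abundant genes of each other list, but not all were described above. Left out were Csf3r and Cxcr2 (neutrophil), Ccr7 (dendritic cell), Ncr1 (T and NK cell) and Cd79a and Cd79b (B cell). Kit (mast cell), Pecam1 and Cdh5 (endothelial), Hbb-bs and Hba-a1 (erythroid) and Cfd (adipocyte) were left out too. Fcrls, Ccr2, Cx3cr1, Mrc1, Trem2 and Itgam, among others, were described in detail after their values were seen. All pairs of libraries differed beyond sampling noise (lowest chi-square per degree of freedom 8.29). Mice are separate samples by their labels. The mouse numbers shared between diets come from the sample titles alone. In the count columns the high-fat mice are numbered on from the control mice. Deviations of mice with the same title number had correlations from -0.36 to 0.33, with 3 of 5 over 0.1. Only 2 libraries correlated best with the library of their own number.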

Additional observations from a re-analysis of the deposited data

Results flagged for a closer look

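Over both diets, 102 groups of 5 values (single genes, sums and ratios, both diets) were screened for a library far from the other 4, and chance alone puts about 1 in 20 groups past the limit used. Cyba had 20.6 CPM in high-fat mouse 1, against 7.58 to 10.2 CPM in the other 4 high-fat mice. The summed NADPH oxidase level was 21.6 CPM in the same mouse, against 11.4 to 14.1 CPM in the other 4, and most of that sum was Cyba. No other group passed the limit.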

How the results depend on the processing

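Over all genes, edgeR called 9 genes; 53 were called with no filter on low counts, 316 by DESeq2, 5 by limma-voom, 811 by limma-voom with quality weights (438 lower, 373 higher; chosen after seeing the data), 16 with mouse number as a replicate block, 0 with log2 library total as a covariate, and 276 without control mice 3 and 4. Leaving out 1 library at a time gave 1 to 27; there were 27 without control mouse 3 and 21 without high-fat mouse 1, and 4 or fewer without any other single mouse but high-fat mouse 5. Of the 37 genes described here, 0 were called with all libraries, 1 with no filter (Pf4), 18 by DESeq2, 3 with quality weights and 2 without control mice 3 and 4. The count stayed at 0 under the other scalings, limma-voom, the library-total covariate, the replicate block and each left-out library. With a library left out, 23 to 32 genes were lower at an unadjusted edgeR p under 0.05. The share over all tested genes was not counted in those fits. With all libraries it was 6.62%. Of 665 estimates under alternatives, 636 kept their direction and side of the threshold, 23 newly passed it and 6 changed sign: Itgb2 without control mouse 3 (0.0086), and, without control mice 3 and 4, Ccr2 (0.27), Itgb2 (0.35), Cd53 (0.040), Ptprc (0.69) and Coro1a (0.25). Itgb2 ran from -0.63 to 0.0086 over the left-out libraries. The summed level was -0.62 on the log2 scale without control mice 3 and 4. The Lyz2 to Csf1r ratio was -0.14 without them; the other 5 ratios kept their sign. With 1 library left out, the Ptprc and Ccr2 ratios to Csf1r differed by 1.09 to 1.68 and by 1.51 to 2.24, with adjusted permutation p of 0.0952 to 0.143 for both. The cause of these shifts was not tested. Depth limits the low genes: at 3 to 8 counts per high-fat library, the size of the Fcrls change is uncertain.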

Other observations

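Genes of MHC class II presentation, outside the 37 and named here after their values were seen, were also highest in control mice 4, 3 and 1. Cd74, the invariant chain, had 17.5, 49.0, 26.7, 34 and 36.6 CPM in high-fat mice, against 104, 27.1, 225, 316 and 37.9 CPM in control mice. Its log2 change was -2.12 (SE 0.63, edgeR adjusted p = 0.237). H2-Ab1, a class II beta chain, had 7.50, 15.7, 8.61, 12.5 and 13.6 CPM in high-fat mice, against 35.2, 8.75, 72.2, 102 and 13.1 CPM in control mice. Ctss, the protease that trims the invariant chain, had a log2 change of -2.18 with SE 0.66 (edgeR, adjusted p = 0.241). For all 3 genes control mouse 4 was highest and control mouse 3 next.

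Among the other macrophage genes, again named after their values were seen, Arg1 and Msr1 differed by more than the class II genes. Arg1, which breaks down arginine, had 1.25, 1.97, 0.916, 1.77 and 0.70 CPM in high-fat mice, against 15.6, 2.76, 15.7, 10.2 and 4.56 CPM in control mice (edgeR adjusted p = 0.102, DESeq2 adjusted p = 2.22e-07). Msr1, a scavenger receptor, had 0.476, 1.08, 0.305, 0.473 and 0.525 CPM in high-fat mice, against 4.98, 1.22, 9.74, 7.34 and 2.16 CPM in control mice (edgeR adjusted p = 0.102, DESeq2 adjusted p = 2.43e-06). For both genes every high-fat library lay below every control library, as for 1.10% of all tested genes. For Msr1 the gap was narrow, 1.08 CPM in high-fat mouse 2 against 1.22 CPM in control mouse 2. For these genes control mouse 4 was not the highest library. Plac8, a gene of monocytes and other leukocytes, stood the other way, with 4.88, 5.74, 9.04, 7.51 and 3.50 CPM in high-fat mice, against 3.14, 2.39, 4.84, 3.12 and 1.88 CPM in control mice, a log2 change of 1.00 with SE 0.28 (edgeR, adjusted p = 0.199).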
